A study of Schizosaccharomyces pombe with 6 samples.

Results

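The Mmi1 elimination machinery and its meiotic target RNAs were followed through 9 genes in vegetative fission yeast, *Schizosaccharomyces pombe*. The genes were taken by systematic ID from the 6988 loci of the deposited count table: *mmi1* (SPCC736.12c), *red1* (SPAC1006.03c) and *pla1* (SPBC646.04) for the machinery, and *rec8* (SPBC29A10.14), *rec11* (SPCC4E9.01c), *mei4* (SPBC32H8.11), *ssm4* (SPAC27D7.13c), *spo5* (SPBC29A10.02) and *crs1* (SPBC2G2.09c) for the meiotic RNAs. Poly(A)+ RNA was sequenced from 3 cultures of wild-type strain AS478 (h-) and 3 cultures of strain AS2302 (h- *siw14*∆::HygMX), in which a hygromycin cassette replaces *siw14*, the gene of an inositol pyrophosphatase. Every culture was a log-phase vegetative culture of a single mating type in YES, a rich medium, at 30 °C, and each genotype is represented by 1 strain. The study asked what the loss of Siw14 does to the transcriptome of otherwise wild-type cells, and each fold change here is *siw14*∆ over wild type.

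In growing fission yeast, many genes needed only for meiosis are transcribed at a low level, and their RNAs are removed in the nucleus. Mmi1, a YTH-domain protein, binds these RNAs through repeats of a short hexamer in a region called the determinant of selective removal. It works with Erh1 and with the Red1-Mtl1 core (MTREC, also called NURS), the poly(A) polymerase Pla1, the poly(A)-binding protein Pab2 and the exosome nuclease Rrp6. During meiosis the RNA-binding protein Mei2 and the noncoding meiRNA, made from *sme2*, sequester Mmi1 so that its targets survive.

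The hexamer was searched in the spliced coding sequences of the RefSeq annotation of build ASM294v3 as TNAAAC, read with U for T in the RNA, on both strands. Over all 5124 coding genes the median was 1.52 copies per kilobase on the sense strand and 1.49 on the opposite strand, and 78.0% of coding sequences held at least 1 copy. The 6 meiotic genes lay at 2.89 to 7.75 copies per kilobase, with a median of 6.45 on the sense and 2.85 on the opposite strand, and 15.5% of all coding genes reached the lowest of these densities. *rec8* had 11 copies in 1686 bases, a number that 0.181% of the 1106 coding genes within 20% of its length reached. For *ssm4*, with 13 copies, that share was 0.227% of 883 genes, for *crs1*, with 7 copies, 0.292% of 1027, and for *mei4*, with 10 copies, 0.344% of 1163. *spo5* (6 copies, 6.90% of 1087) and *rec11* (8 copies, 10.2% of 518) were less dense, although the annotated exons of *spo5* with its untranslated parts held 14 copies on the sense and 4 on the opposite strand, and those of *rec11* 14 and 6. Among the machinery genes *red1* held 7 copies (7.46% of 791 genes of like length), *mmi1* 4 (20.1% of 1186) and *pla1* 1 (91.6% of 1090). A copy of the hexamer is a match of letters and not a measured Mmi1 site. The 6 meiotic genes were taken as targets of Mmi1, which binds such repeats, so high copy numbers in them are not an independent result.

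**Figure D1:**
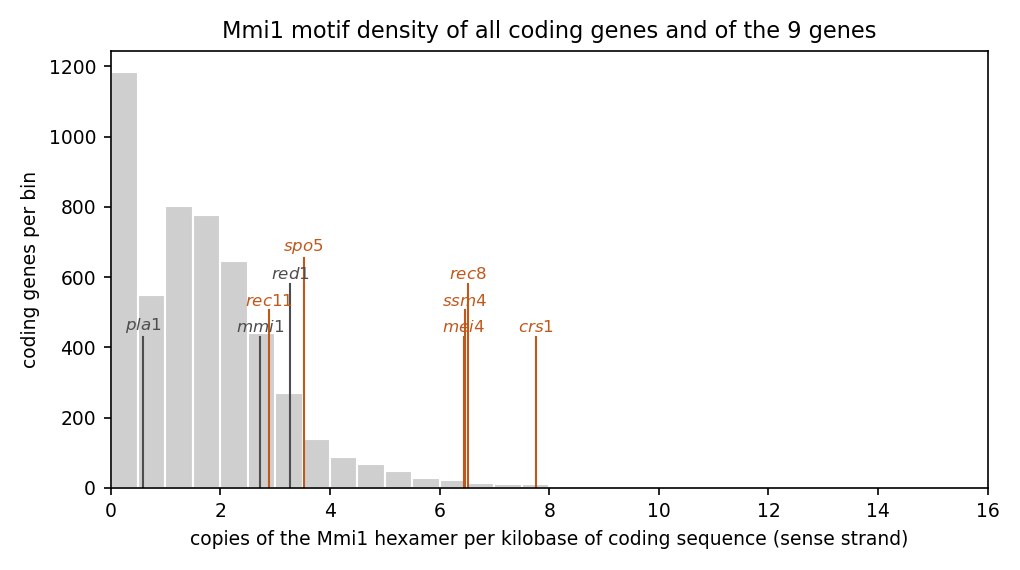
Number of coding genes (y axis) by copies of the Mmi1 hexamer per kilobase of coding sequence on the sense strand (x axis), in bins of 0.5. Vertical lines mark the 6 meiotic genes in orange and the 3 machinery genes in grey, their heights only spacing the names. *mei4*, *ssm4*, *rec8* and *crs1* stand in the sparse right tail, at 6.44 to 7.75 copies, and *pla1* near the left end.

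The stretches below show how the copies sit in the meiotic messages. Each is 30 bases of coding sequence around the first group of copies that is as large as any group within 30 bases of that gene (2 copies, but 1 in *rec11*), 5′ to 3′ as DNA, with the hexamer in capitals:
rec8: tTAAAACcatggattgaaaagcTCAAACca
mei4: tagtTTAAACtcaaatattgTTAAACcccc
ssm4: acagaagTTAAACattTGAAACtatgctta
spo5: gtTTAAACccagcaaaatcataTCAAACcg
crs1: tgcagaTGAAACttataTTAAACactcaaa
rec11: aagaattttttcTCAAACtgttggatatag
red1: tttccTCAAACcgcctccTCAAACaaaacc
The stretch of *red1*, a gene of the machinery itself, is shown because it has the same arrangement, with 2 copies. Stretches with 2 copies are not rare: they occurred in 6.23% to 10.9% of coding genes within 20% of the length of the genes shown with 2.

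The libraries held 12875286 to 14583056 counts in genes. The deleted gene *siw14* had 2014 to 2414 counts in the wild-type and 12 to 14 in the *siw14*∆ libraries, so that every library carried the level of its label. The filter for low counts kept 5774 loci, and edgeR's quasi-likelihood test (threshold 0.05 on the adjusted p) called 964 of them higher and 288 lower. All pairs of replicates differed by more than counting noise (chi-square of 8.83 to 38.1 per degree of freedom), so each library was counted as its own replicate. Wild-type replicate 1 stood apart on the first principal component (60.7% of the variance), at −31.2 against −3.61 and −9.64 for wild-type replicates 2 and 3 and 13.4 or more for the *siw14*∆ libraries, and had the lowest TMM scaling factor (0.864, against 0.976 to 1.11). Wild-type replicate 2 stood apart in genes of sexual differentiation: the summed level of 19 such markers in normalized counts was 12336, 7816 and 12188 for wild-type replicates 1, 2 and 3, and 8398 to 8482 for the *siw14*∆ libraries. Normalized counts are counts brought to the mean of the effective library sizes.

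The machinery genes lay in the middle of the expression range and the meiotic genes at its bottom. Per kilobase of exon, *mmi1* was at 37.4 ± 2.87 RPKM (SD, n = 3) in wild type and 33.6 ± 1.93 in *siw14*∆ cells. *pla1* followed at 32.1 ± 0.547 and 38.0 ± 3.07 RPKM, and *red1* at 13.7 ± 0.249 and 19.0 ± 1.78 RPKM (SD, n = 3 each). In wild type, 56.4%, 52.4% and 30.6% of 5111 coding genes lay below *mmi1*, *pla1* and *red1*. The most abundant meiotic RNA, *mei4*, reached 0.930 ± 0.256 RPKM in wild type and 1.09 ± 0.305 in *siw14*∆ cells, and 5.05% of coding genes lay below it in wild type. The others followed in wild type in the order *ssm4* (0.371 ± 0.142), *crs1* (0.30 ± 0.195), *rec11* (0.192 ± 0.125), *spo5* (0.179 ± 0.0760) and *rec8* (0.0813 ± 0.0686 RPKM, SD, n = 3 each). In wild type the ranges of *mmi1* and *pla1*, of *pla1* and *red1*, of *red1* and *mei4* and of *mei4* and *ssm4* did not overlap, and those of each later pair of neighbors did. In *siw14*∆ cells *pla1* (35.2 to 41.3 RPKM) came just above *mmi1* (31.4 to 35.2 RPKM). Among the mutant libraries *ssm4* (0.694 ± 0.223 RPKM), *crs1* (0.580 ± 0.321) and *rec11* (0.530 ± 0.0806) lay within their spread of each other. The label of vegetative growth was checked on the 2 lists of meiotic genes. Of 24 recombination, cohesion and pairing genes, 20 had a mean under 50 normalized counts and 4 (*rec15*, *rec27*, *hop1* and *moa1*) were at 0 in at least 1 library. Of 25 division and spore genes, 11 had a mean under 50, *mfr1* and *spo4* were at 0 in at least 1 library, and 14 were higher, among them *mes1* (366 to 529 counts), *spo3* (711 to 911 counts) and *spo14* (1070 to 1573 counts). The summed level of the first list was 2451 to 2710.0 normalized counts in wild type and 2307 to 2610 in *siw14*∆ libraries, most of it from the dynein light chain gene *dlc1* (1612 to 2006 counts), and that of the second 10989 to 11866 and 11684 to 12409. The second list includes the member *crs1*, and its largest levels were those of *psy1* (2334 to 3642 counts) and *cig2* (1435 to 2273 counts). The sum of that list alone does not show that cells were in meiosis or forming spores.

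**Figure D2:**
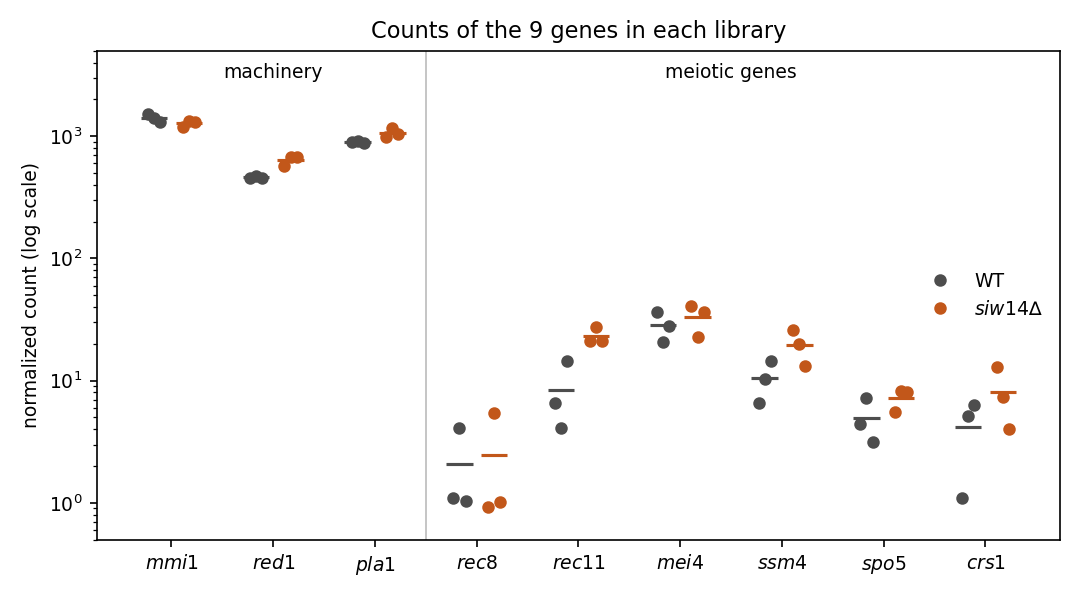
Normalized counts (y axis, log scale) of the 9 genes (x axis) in each of 3 wild-type (grey) and 3 *siw14*∆ (orange) libraries, with a line at each mean. The *siw14*∆ points clear the wild-type points for *red1*, *pla1* and *rec11*, and the groups overlap at the other 6 genes. Over all loci kept by the filter, 27.7% had every *siw14*∆ library above every wild-type library.

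Of the 9 genes, 6 passed the filter on low counts, and of these *red1* and *rec11* were called higher, none lower, and 4 did not pass the test. *rec11* and *ssm4* passed the filter only through the *siw14*∆ group, so the filter itself helped to set this tally. The fit without a filter covered all 9 genes and called 2 higher, against 15.2% of its loci. Of the machinery genes, *red1* rose in *siw14*∆ cells while *mmi1* and *pla1* did not pass the test. Red1 is the zinc-finger scaffold of the Red1-Mtl1 core. Its normalized counts, with replicates 1, 2 and 3 always in that order, were 455, 469.6 and 455 in wild type and 570.5, 675 and 673 in *siw14*∆ cells, so that every mutant library lay above every wild-type library. The increase was 1.39-fold, or 0.48 on the log2 scale (SE 0.12, 95% interval 0.22 to 0.73, edgeR adjusted p = 0.0257). Over all loci kept, 16.7% were called higher and 27.7% had every mutant library above every wild-type library. Among the 1887 loci with a mean of 500 to 2000 normalized counts, the range in which *red1*, *pla1* and *mmi1* fall, 15.3% were called higher and 3.60% lower. The *red1* call was lost without *siw14*∆ replicate 2 (0.44, adjusted p = 0.101) or replicate 3 (0.43, adjusted p = 0.102), where edgeR called 0 loci higher, and after removal of each library's trend over abundance (0.27, adjusted p = 0.138), where it also called 0. At an unadjusted p under 0.05 these 3 fits had 1734, 1756 and 1634 loci in either direction, and DESeq2 with all libraries called 1025 higher.

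Pla1, the canonical nuclear poly(A) polymerase, adds the tails that the Mmi1 pathway needs. *pla1* stood at 893, 915 and 885 normalized counts in wild type against 986, 1157 and 1051 in *siw14*∆ cells. Every mutant library lay above every wild-type library, as at 27.7% of all loci kept. The log2 fold change of 0.25 (SE 0.10, 95% interval 0.04 to 0.46, adjusted p = 0.0816 from edgeR) missed the threshold. Scaling by library totals alone, which raises the median of all loci by 0.18, put it at 0.42 (adjusted p = 0.0212).

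*mmi1* itself stood at 1521, 1418 and 1303 normalized counts in wild type against 1189, 1329 and 1294 in *siw14*∆ cells. The groups overlapped, with a log2 fold change of −0.15 (SE 0.09, 95% interval −0.36 to 0.05, adjusted p = 0.227 from edgeR). With library totals alone the estimate was 0.026 (adjusted p = 0.843), and with the GC trend removed −0.26 (adjusted p = 0.0548 from edgeR). The medians of all loci in these fits were 0.18 and −0.06.

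**Figure D3:**
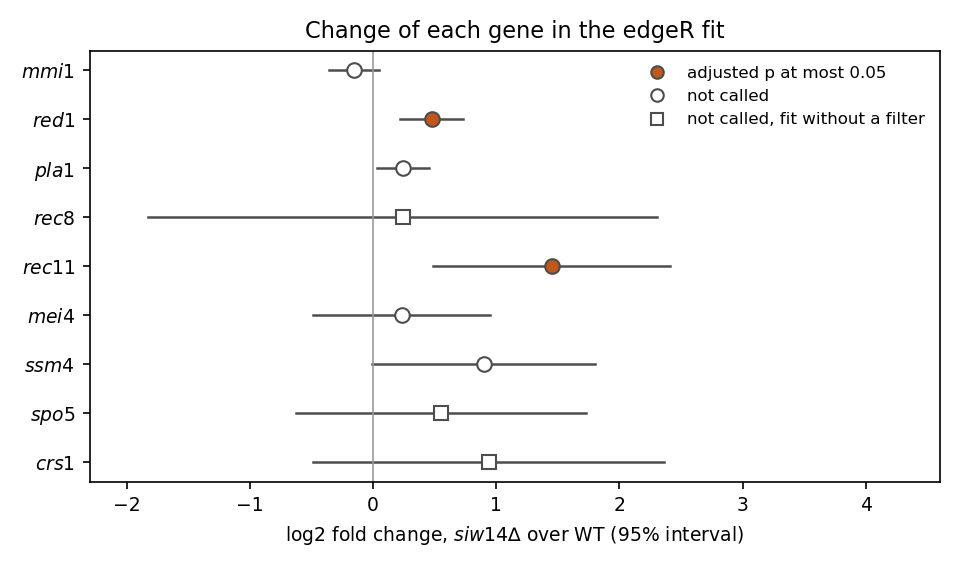
Log2 fold change, *siw14*∆ over wild type (x axis) of the 9 genes with 95% intervals from edgeR. Filled points are called at an adjusted p of at most 0.05, open points are not, and squares mark genes that only the fit without a filter on low counts covers. *red1* (0.48) and *rec11* (1.45) are the filled points, and the intervals of *rec8*, *spo5* and *crs1* span more than 2 log2 units.

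The wider machinery list held 15 loci, of which 14 were kept. Of these, 6 rose, 1 fell and 7 did not pass, and the median log2 fold change was 0.30, against 0.01 over all loci. Background shares in this fit were 16.7% called higher and 4.99% called lower. With library totals alone 9 were called higher, where 1368 of 5774 loci were, and the median was 0.48, against 0.18 over all loci. Beside *red1*, the genes that rose were those of other nuclear RNA decay proteins. *rrp6*, the exosome nuclease, went from 428, 652 and 542 to 880, 1086 and 906 normalized counts, or up by 0.82 on the log2 scale (SE 0.15, edgeR adjusted p = 0.0235). *mtl1*, the RNA helicase that pairs with Red1, went from 388, 663 and 596 to 852, 843 and 819, or up by 0.61 (SE 0.17, adjusted p = 0.0335). In both genes all mutant libraries lay above all wild-type libraries, as at 27.7% of all loci kept. Wild-type replicate 1 was the lowest library for *rrp6*, *mtl1*, *pir2* and *red5*, which were called without it too, at 0.70, 0.43, 0.54 and 0.58 on the log2 scale (adjusted p = 0.0226, 0.0256, 0.0246 and 0.0226). *pir2*, the Ars2 homolog that links MTREC to the cap-binding complex, rose by 0.63, *red5*, a zinc-finger protein, by 0.62 and *rmn1*, an RNA-binding subunit of MTREC, by 0.37 on the log2 scale (adjusted p = 0.0235, 0.0235 and 0.0453 from edgeR).

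Other partners were not called. *erh1*, whose protein dimerizes and binds Mmi1, had a log2 fold change of 0.35 (adjusted p = 0.0747), with 236 to 272 normalized counts in wild type and 290 to 339 in *siw14*∆ libraries. *iss10*, which bridges Mmi1 and Red1, had −0.24 (adjusted p = 0.113), and *pab2* had −0.18 (adjusted p = 0.150). In both of these every *siw14*∆ library lay below every wild-type library, as at 19.2% of all loci kept. The cap-binding genes *cbc1* and *cbc2* had log2 fold changes of 0.13 and −0.02 (adjusted p = 0.243 and 0.863). Like *red1*, none of the other 5 genes that rose was called without *siw14*∆ replicate 2 or 3 (adjusted p from 0.0865 to 0.168) or after removal of the abundance trend. In the latter fit *red5* went from 0.62 to 0.31 (adjusted p = 0.101), while *rrp6* was at 0.71 (adjusted p = 0.0582), *mtl1* at 0.48 (adjusted p = 0.101), *pir2* at 0.44 (adjusted p = 0.0744) and *rmn1* at 0.40 (adjusted p = 0.0770). With the GC trend removed *red5* was at 0.37 (adjusted p = 0.0399). *rmn1* was also lost without wild-type replicate 1 (0.34, adjusted p = 0.0746), wild-type replicate 3 (0.36, adjusted p = 0.0756) or *siw14*∆ replicate 1 (0.46, adjusted p = 0.0504) and with DESeq2's size factors in edgeR (0.34, adjusted p = 0.0522), and *mtl1* without wild-type replicate 3 (0.71, adjusted p = 0.0522) or *siw14*∆ replicate 1 (0.60, adjusted p = 0.0868).

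**Figure D4:**
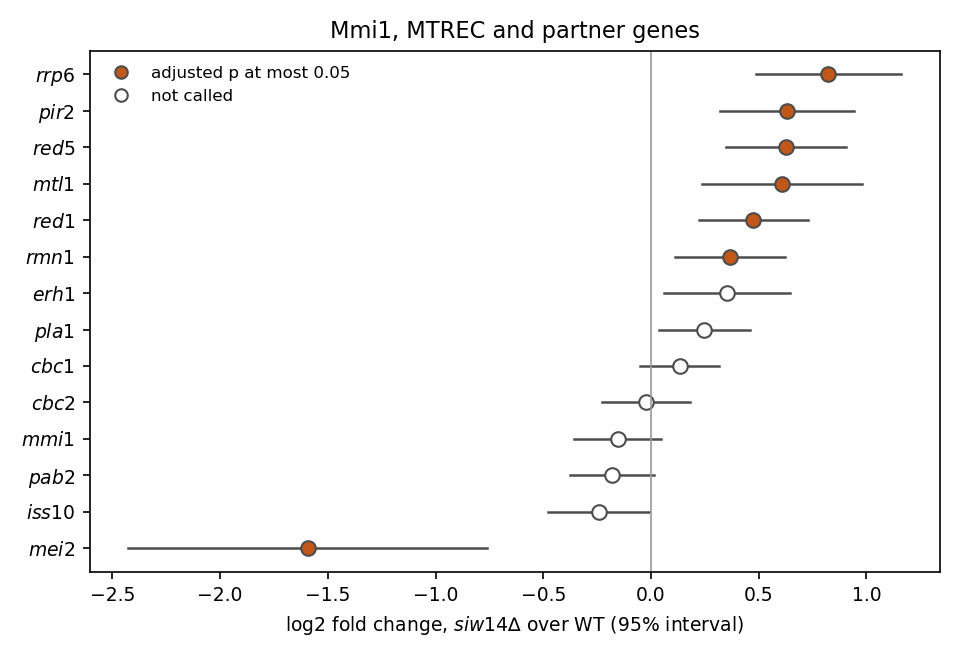
Log2 fold change, *siw14*∆ over wild type (x axis) with 95% intervals for the 14 machinery genes kept by the filter, ordered by size. Filled points are called at an adjusted p of at most 0.05. The 6 genes called higher run from *rmn1* (0.37) to *rrp6* (0.82), and *mei2* (−1.59) is the single gene called lower.

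Of the antagonists of Mmi1, *mei2* was called lower and *sme2* was barely detected. *mei2* stood at 1523, 387 and 1434 normalized counts in wild type against 398, 349 and 360.3 in *siw14*∆ cells, so that wild-type replicate 2 lay among the mutant values. Its log2 fold change was −1.59 (adjusted p = 0.0250 from edgeR). It became −1.29 (adjusted p = 0.0709) when wild-type replicate 1 was left out, without wild-type replicate 3 −1.33 (adjusted p = 0.0613), and without *siw14*∆ replicate 1, 2 or 3 −1.65, −1.55 and −1.58 (adjusted p = 0.0584, 0.0981 and 0.0865). With limma-voom it was −1.35 (adjusted p = 0.0552), and after removal of the abundance trend −1.78 (adjusted p = 0.0613). *sme2* (SPNCRNA.103) had 2, 7 and 8 counts in wild-type and 4, 3 and 3 counts in *siw14*∆ replicates 1, 2 and 3, which was too few to pass the filter.

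The Ccr4-Not deadenylase, which Mmi1 also contacts, had 8 of 8 listed and matched loci kept. Of these, 1 was called higher, 1 lower and 6 did not pass, against 16.7% higher and 4.99% lower over all loci kept. The median log2 fold change was −0.05, and 0.13 with library totals alone, where it was 0.18 over all loci. *not3*, a noncatalytic subunit, rose by 0.59 on the log2 scale (edgeR adjusted p = 0.0235), with 630 to 765 normalized counts in wild type and 926 to 1171 in *siw14*∆ libraries. *ccr4*, a deadenylase subunit, fell by 0.40 on the log2 scale (adjusted p = 0.0386), with a mean of 3539 ± 596 in wild type and 2687 ± 143 in *siw14*∆ cells (normalized counts, SD, n = 3). The *ccr4* call was lost with library totals alone (−0.21, adjusted p = 0.118) and without wild-type replicate 1 (−0.24, adjusted p = 0.0830). It was also lost without *siw14*∆ replicate 1, 2 or 3 (adjusted p = 0.109, 0.103 and 0.126) and after removal of the abundance trend (adjusted p = 0.163), fits that each called 1 locus lower. That of *not3* was lost without *siw14*∆ replicate 2 or 3 (adjusted p = 0.0981 and 0.0865) and after removal of the abundance trend (adjusted p = 0.0590).

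The meiotic members were measured at the edge of detection. Together they gave 51, 50 and 65 counts in wild-type and 116, 100 and 83 counts in *siw14*∆ replicates 1, 2 and 3. In whole cultures, fewer cells carrying such an RNA and less RNA per cell cannot be told apart. Of the 6 genes, 3 passed the filter, which asked for 0.737 CPM in at least 3 libraries. *mei4* passed in both groups. *rec11* and *ssm4* reached that level in 1 wild-type and all 3 *siw14*∆ libraries, so they entered the test through the group in which they were high and had to differ to that extent.

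*rec11* encodes the STAG subunit that partners Rec8 in cohesin along meiotic chromosome arms. It had 6, 4 and 14 counts in wild-type and 23, 30 and 21 counts in *siw14*∆ replicates 1, 2 and 3. Every mutant library lay above every wild-type library also after scaling, at 21.2 to 27.3 against 4.12 to 14.6 normalized counts. That order held at 27.7% of all loci kept. The log2 fold change was 1.45 (SE 0.44, 95% interval 0.49 to 2.41, adjusted p = 0.0407 from edgeR), or 2.73-fold. In the fit of all 6500 loci with a count, where no filter chose it and 15.2% of loci were called higher and 4.26% lower, it was also 1.45 (adjusted p = 0.0399). DESeq2 gave 1.43 with an unadjusted p = 0.0154 and no adjusted p. Among the loci with a mean under 50 normalized counts, 1.91% of 629 were called higher and 0.636% lower, and their median log2 fold change was 0.15. The *rec11* call was lost without any single library other than wild-type replicate 3: the log2 fold change was 1.32 and 1.11 without wild-type replicates 1 and 2 (adjusted p = 0.105 and 0.0730) and 1.51, 1.32 and 1.5 without *siw14*∆ replicates 1, 2 and 3 (adjusted p = 0.0865, 0.134 and 0.109).

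*ssm4*, the p150-Glued homolog that binds microtubules in the nuclear movement of meiotic prophase, had 6, 10 and 14 counts in wild-type and 28, 22 and 13 in *siw14*∆ replicates 1, 2 and 3. Mutant replicate 3 lay within the wild-type range. The log2 fold change of 0.90 (95% interval −0.01 to 1.80, adjusted p = 0.124 from edgeR) did not pass. *mei4*, the forkhead factor that turns on the middle meiotic genes, had 33, 20 and 27 counts in wild-type and 44, 25 and 36 in *siw14*∆ replicates 1, 2 and 3, with overlapping groups. Its log2 fold change was 0.23 (95% interval −0.49 to 0.95, adjusted p = 0.616).

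The remaining 3 meiotic genes were covered by the fit without a filter alone. *crs1*, a meiotic cyclin, had 1, 5 and 6 counts in wild-type and 14, 8 and 4 in *siw14*∆ replicates 1, 2 and 3, and its interval ran from −0.49 to 2.36 on the log2 scale (adjusted p = 0.323 from edgeR). *spo5*, an RNA-binding protein of meiosis, had 4, 7 and 3 against 6, 9 and 8 counts, with an interval of −0.63 to 1.73 (adjusted p = 0.489). *rec8*, the meiotic cohesin kleisin, had 1, 4 and 1 against 1, 6 and 1 counts, with an interval of −1.82 to 2.31 (adjusted p = 0.873). The intervals of these 3 genes take in both no change and a 2-fold increase, so these counts do not tell no change from a 2-fold increase. The groups overlapped in all 3 genes. Whether the density of the hexamer bears on the changes of the meiotic genes was not tested.

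**Figure D5:**
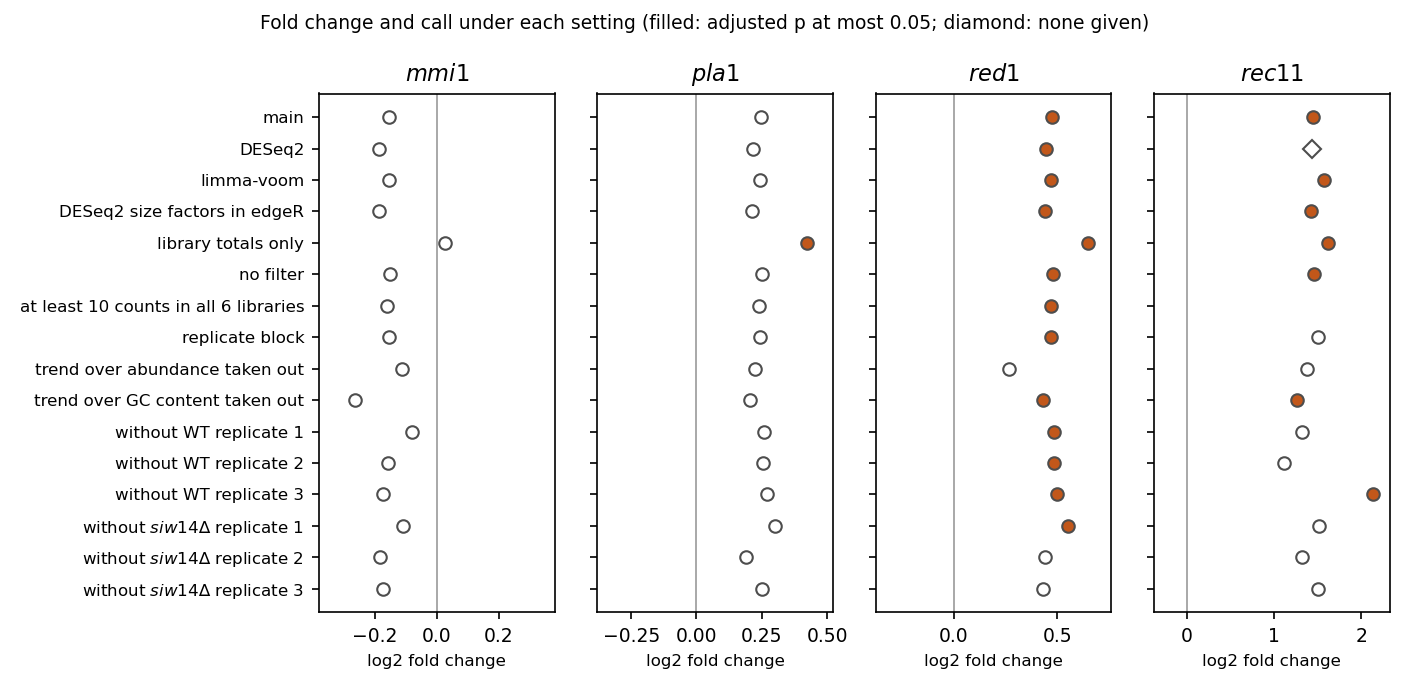
Log2 fold change, *siw14*∆ over wild type (x axis, own range in each panel) of *mmi1*, *pla1*, *red1* and *rec11* under the main test and each alternative (rows). Filled points have an adjusted p of at most 0.05, open points do not, and the diamond has no adjusted p. The estimate for *rec11* runs from 1.11 without wild-type replicate 2 to 2.14 without wild-type replicate 3, and *mmi1* is above 0 only with library totals.

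In the list of recombination, cohesion and pairing genes, 12 of 24 were kept, 1 rose, none fell and 11 did not pass. Of the 12, 8 had a mean under 50 normalized counts, the class in which 1.91% of loci were called higher, against 16.7% of all loci kept. The median log2 fold change was 0.46, beside 0.15 for all loci under 50 normalized counts in the same fit. Over the other settings it ran from 0.21 without wild-type replicate 1 to 0.63 with library totals alone, where all loci had 0.18. It was 0.26 with the abundance trend removed and 0.23 with the GC trend removed. *rec12*, which makes the double-strand breaks of meiosis, had 9, 11 and 27 counts in wild-type and 30, 51 and 46 in *siw14*∆ replicates 1, 2 and 3, an increase of 1.28 on the log2 scale (SE 0.41, edgeR adjusted p = 0.0478). Like *rec11* it entered the test through the *siw14*∆ group, reaching the CPM minimum in 2 wild-type and 3 *siw14*∆ libraries, and in the fit without a filter it was also at 1.28 (adjusted p = 0.0446). It was not called without wild-type replicate 1 (1.03, adjusted p = 0.127), wild-type replicate 2 (1.06, adjusted p = 0.0852) or any *siw14*∆ replicate (1.15 to 1.49, adjusted p = 0.0637 to 0.147), and it was 1.94 without wild-type replicate 3 (adjusted p = 0.0406). *rec25*, of the linear elements, had 7, 14 and 13 against 20, 28 and 21 counts and a log2 fold change of 0.86 (adjusted p = 0.0991), and reached the minimum in the same numbers of libraries. The list of later division and spore genes had a median of 0.01, and 0.18 with library totals alone, as over all loci in that fit. Of its 25 genes, 20 were kept, 1 rose, none fell and 19 did not pass, against 16.7% called higher over all loci kept. That gene was *spo15* (0.68, SE 0.13, adjusted p = 0.0235), which encodes a spindle pole body protein needed to form spores and stood at 577, 846 and 800.4 normalized counts in wild type against 1164, 1190 and 1211 in *siw14*∆ cells. *spn7*, a meiotic septin, had 0.59 (adjusted p = 0.0515). *spo15* was not called without *siw14*∆ replicate 2 or 3 (adjusted p = 0.0981 and 0.0865) or after removal of the abundance trend (adjusted p = 0.0582).

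Of 19 listed genes of sexual differentiation, the state from which meiosis starts, 18 were kept, 4 fell, 1 rose and 13 did not pass, against 4.99% called lower and 16.7% higher over all loci kept. The median log2 fold change was −0.07. It was −0.34 with the abundance trend removed, −0.28 with the GC trend removed and −0.31 without wild-type replicate 2, against −0.01, −0.06 and 0.01 over all loci. With library totals alone it was 0.12, against 0.18 over all loci, and 1 fell and 2 rose, against 31 and 1368 of 5774 loci. Without wild-type replicate 3 it was 0.02, against 0.06 over all loci. The genes that fell were *mei2*, which is on the machinery list too, *ste11* (−0.81, adjusted p = 0.0315), the transcription factor of mating and meiosis, *isp6* (−0.49, adjusted p = 0.0362), a vacuolar protease, and *gpa1* (−0.34, adjusted p = 0.0444), the pheromone-coupled G protein. *isp6* was at −0.29 without wild-type replicate 1 (adjusted p = 0.0887) and −0.30 with library totals alone (adjusted p = 0.0891). *gpa1* was at −0.22 without wild-type replicate 3 (adjusted p = 0.163), −0.16 with library totals alone (adjusted p = 0.334) and −0.55 with the GC trend removed (adjusted p = 0.0199). *ste11* was at −0.57 without wild-type replicate 1 (adjusted p = 0.0959) and −0.62 with library totals alone (adjusted p = 0.0593). Without wild-type replicate 2, *ste11*, *isp6* and *gpa1* were at −1.07, −0.64 and −0.44 (adjusted p = 0.000709, 0.00551 and 0.00923 from edgeR). *fus1*, the formin of cell fusion, rose by 0.94 on the log2 scale (edgeR adjusted p = 0.0235), with 68.0 to 106 normalized counts in wild type and 155 to 192 in *siw14*∆ libraries. It was not called without *siw14*∆ replicate 1, 2 or 3 (adjusted p = 0.0547, 0.0981 and 0.0865). *mei3*, which releases Mei2 from its inhibitory kinase, had 10 to 12 counts in wild-type and 5 to 11 in *siw14*∆ libraries. The row of *mat1-Mc*, a gene with a near-identical silent copy, was at 0 in every library. The list had 4 genes called lower with all libraries, 7 without wild-type replicate 2 and 0 without any other single library. Over all loci, 288 of 5774 were called lower with all libraries and 717 of 5836 without wild-type replicate 2. Without wild-type replicates 1 and 3 there were 48 and 44, and without each *siw14*∆ replicate 1. Whether the differentiation genes bear on the levels of the meiotic members was not tested.

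Some members share bases with other loci in the ASM294v3 annotation. The study made its libraries with a strand-specific kit, but no source used here gives the strand setting of the counting. The opposite strand of *crs1* carries 444 bases of *ade9* (914 to 1355 counts per library), and that of *rec11* carries 1187 bases of the noncoding SPNCRNA.1180 (16 to 48 counts). The noncoding locus had a log2 fold change of 0.42 (adjusted p = 0.349 from edgeR). *spo5* shares 127 bases with *pcf1* on the opposite strand and *mei4* 115 bases with *cdk9* on its own. Noncoding loci that are not rows of the count table overlap *mmi1*, *red1*, *rec8*, *rec11*, *mei4* and *ssm4* on the opposite strand, over 99.5% of the exon length in the case of *rec8*.

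By likeness of pattern over the 6 libraries, the loci closest to *mmi1* in log2 CPM were *yrs1* (Pearson r = 0.999), *rpl501*, a ribosomal protein gene (r = 0.999), and *rps1102*, another (r = 0.998). Those closest to *rec8*, which rests on 1 to 6 counts per library, were *SPAC2H10.01* (r = 0.982), *map3* (r = 0.977) and *SPAC25B8.18* (r = 0.973). These coefficients are a description over 6 libraries that share scaling and depth.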

How the data were processed

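RNA-seq of poly(A)+ RNA from 3 wild-type and 3 *siw14*∆ cultures was analyzed. The authors mapped paired reads to build ASM294v2 with HISAT2 2.1.0 and deposited raw counts per gene over exons from HTSeq 0.10.0, not normalized. Lines of the count table that name no gene (5, filled only in *siw14*∆ columns, 31.6% to 35.8% of those columns) were left out. The deposited DESeq2 table, which holds the fold changes, p-values and strain means of the authors' comparison, was not used.

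Library sizes were summed over genes. After filterByExpr and TMM scaling, edgeR 4.0.16 (R 4.3.3) fitted both genotypes without covariates (glmQLFit, glmQLFTest), with Benjamini-Hochberg adjustment over the 5774 loci kept. The standard error is the fold change over the root of F, and the 95% interval uses the t quantile. *sme2* and members removed by the filter come from the fit of all 6500 loci with a count. RPKM and overlaps use ASM294v3 exons (6829 of 6988 IDs matched). Sequences were read by gene ID within that annotation, and no coordinates are given, since it is not the authors' build. The alternatives were DESeq2 1.42.0, limma-voom (limma 3.58.1), other scalings and filters, a replicate block, loess trends (span 0.3) over abundance or GC content taken out, and each library left out.

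On simulated counts for this comparison, edgeR called 50 of 67 genes changed 1.5-fold, 62 of 67 changed 2-fold, 66 of 66 changed 4-fold and 12 of 5574 unchanged genes. The changed genes were drawn at random from all loci kept, and the simulation held the trended dispersion but no trend over abundance between libraries. These shares therefore do not apply to the low counts of the meiotic members or to data with such a trend. The members and lists were chosen with earlier results of these data known. Named were the 9 members, *siw14*, *mei2*, *sme2*, up to 8 called genes of each list (or, with under 2 called, the 2 with the smallest p) and the 3 loci most like *mmi1* and *rec8*. The names *caf40*, *caf130* and *mei1* matched no locus. *mes1*, *spo3*, *spo14*, *psy1*, *cig2*, *dlc1*, *mei3*, *hop1* and the genes at 0 were named after their values were seen. The study calls the samples biological replicates, so the p-values measure the spread between these cultures of 1 strain per genotype. Intervals at low counts cover counting error and that spread only.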

Additional observations from a re-analysis of the deposited data

How the results depend on the processing

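The 964 loci called higher and 288 called lower became 0 and 1 with the abundance trend removed. The lower count was 705 with DESeq2, 495 with its size factors in edgeR, 31 with library totals only (1368 higher, 97.8% of calls against 77.0%), 156 with the replicate block and 937 with the GC trend removed (47.2% higher). Without 1 library the counts ran from 0 to 1204 higher and from 1 to 717 lower. Without *siw14*∆ replicate 1, 2 or 3, 378, 0 and 0 loci were called higher and 1 lower each time.

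Of the members, *mmi1* moved to 0.026 and *pla1* to 0.42 with library totals only, and *mmi1* to −0.26 with the GC trend removed. *rec11* lost its call with the replicate block (1.5, adjusted p = 0.0637) and with the abundance trend removed (1.37), where *red1* also lost its call (0.27). The 2 members called became 1 with DESeq2 (which gave *rec11* no adjusted p), with at least 10 counts in all libraries (which drops *rec11*) and with the block, and 0 with the abundance trend removed. Without 1 library the log2 fold changes ran from 0.43 to 0.55 (*red1*), 1.11 to 2.14 (*rec11*), 0.19 to 0.30 (*pla1*), −0.18 to −0.08 (*mmi1*), 0.04 to 0.46 (*mei4*) and 0.66 to 1.24 (*ssm4*), with 0 to 2 members called.

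With the abundance trend removed, every list had 0 calls in either direction. Machinery genes called lower were 0 with limma-voom and 3 with the GC trend removed. Ccr4-Not genes called lower were 2 with DESeq2, with its size factors and with at least 10 counts, 0 with library totals and 4 with the GC trend removed, and 2 were called higher with the block. Division and spore genes called higher were 3 with library totals and 2 with at least 10 counts, and 1 was lower with the GC trend removed. Recombination genes called were 0 with at least 10 counts. Sexual differentiation genes called higher were 2 with library totals and 2 with the block, and 1 was lower with library totals. Without 1 library the machinery had 0 to 6 higher and 0 to 1 lower, Ccr4-Not 0 to 2 in either direction, recombination 0 to 1 higher, division and spores 0 to 2 higher and 0 to 1 lower, and sexual differentiation 0 to 2 higher and 0 to 7 lower. The causes were not tested.

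Same-numbered samples did not deviate together (r = −0.26, 0.18 and −0.16 for numbers 1, 2 and 3), so the pairing rests on a number alone. *rec8*, *spo5* and *crs1*, with at most 14 counts in a library, could be fitted only without a filter or by DESeq2, and *rec11* and *ssm4* had no value with at least 10 counts in all libraries. Counting noise at such depth limits what can be said of the meiotic RNAs.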

Other observations

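The neighbors *pcf1* and *cdk9* and the gene *hop1* were chosen after their values were seen. *pcf1*, a subunit of the chromatin assembly factor whose gene overlaps the end of *spo5* on the opposite strand, went from 242, 312 and 305 counts in wild type to 543, 566 and 554 in the mutant. Its log2 fold change was 0.80 (SE 0.13, adjusted p = 0.0235 from edgeR). *cdk9*, the kinase gene directly before *mei4* on the same strand, had 364, 540 and 396 against 663, 870 and 698 counts and a log2 fold change of 0.62 (adjusted p = 0.0262). *mei4* itself was at 0.23 and *spo5* at 0.55 (adjusted p = 0.616 and 0.489 from edgeR). *hop1*, of the meiotic chromosome axis, had 0, 0 and 2 counts in wild-type and 3, 10 and 5 in *siw14*∆ replicates 1, 2 and 3, under the filter and not called in the fit without it (adjusted p = 0.0678).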
